A study of Mus musculus with 4 samples.

Results

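The genes described here encode the subunits of the proteasome and the factors named with them. They were taken by symbol: all probe sets that the platform annotation pairs with 1 gene whose symbol is Psma, Psmb, Psmc, Psmd or Psme followed by a number. This gave 46 probe sets for 44 genes, of 22180 genes with such a probe set on the array. They were the core alpha ring (6 genes), the core beta ring (7), the immunoproteasome (3), the ATPases of the cap (6), its non-ATPase subunits (11), chaperones of cap assembly (3), the ring-shaped 11S activators (3), the activator PA200 (1) and tissue-restricted core subunits (2). A further 2 genes, Psmc3ip and Psme3ip1, matched the symbol rule but encode interacting proteins that are not subunits. They are described apart, but counts over all 43 genes include both and counts over 33 include Psme3ip1, as the rule has it. Psma4 lay only on probe sets shared with another gene and was not used.

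The samples were bone marrow-derived macrophages of mice aged 8 to 12 weeks, grown for 7 days with 15% medium conditioned by L929 cells. Wild type means Hilpdaflox/flox, with loxP-flanked alleles and no deletion, and knockout means HilpdaΔMΦ littermates, in which Hilpda, an inhibitor of lipid droplet lipolysis, is deleted in macrophages. The labels name no promoter for the deletion. All 4 groups received 600 µM fatty acids bound to albumin, 1 part palmitate to 2 parts oleate: wild type and knockout for 12 h, and wild type and knockout for 24 h. Each group was 1 array, hybridised with pooled RNA of 3 samples. The differences between single arrays therefore have no replicate error and were not tested. All groups were loaded with fatty acids, so the values say nothing of the response to fatty acids as such.

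The proteasome degrades proteins tagged with ubiquitin. Its barrel-shaped core consists of outer alpha rings, which gate the entrance, and inner beta rings, which hold the active sites. A cap of ATPases and non-ATPase subunits binds ubiquitin chains, removes them and threads the unfolded protein into the core. In macrophages and other immune cells, interferon can induce alternative active-site subunits, which form the immunoproteasome and favour peptides for MHC class I.

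The arrays were close to each other, with pairwise Pearson correlations of 0.984 to 0.988 over 41345 probe sets. Hilpda lay lower in knockout, with log2 levels of 5.93 (wild type) and 5.41 (knockout) after 12 h, then 5.47 and 5.27. The differences were -0.51 and -0.20. That at 24 h lay within the central 95% of all genes kept by the filter, -0.66 to 0.62. All 8 macrophage markers passed the level filter described below, with mean log2 levels from 8.53 to 12.6, as did 0 of 5 neutrophil, 1 of 4 measured T cell, 1 of 3 measured B cell and 3 of 5 dendritic cell markers. The summed linear signal of the macrophage markers was 19310 (wild type) and 18710 (knockout) after 12 h, and 22711 and 19261 after 24 h, so it was highest in the wild-type 24 h array. Of 9 stromal markers 7 passed it (Lum and Thy1 did not), and their summed linear signal was 588 (wild type) and 405 (knockout) after 12 h, and 954 and 557 after 24 h. The stromal list thus lay lower in knockout at both times and higher at 24 h in both genotypes, and the part of either list in the differences below was not tested. Fewer cells of a type and less RNA per cell cannot be told apart in such pools.

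Of the 44 genes, 43 passed the filter, a mean log2 level at or above 2.44, which is the 40th percentile of all genes. The exception was Psmb11, the thymus-specific core subunit, with log2 levels between 1.78 and 2.49. A log2 level of 7 or above was reached by 33 of the 43. The dim genes that passed were Psma5, Psmc3ip, Psma8 and Psmb3, with mean log2 levels of 2.76, 3.20, 3.28 and 3.44. Psma5 and Psmb3 encode regular subunits of the alpha and beta ring, so these probe sets say little about them. Levels of different probe sets are not set against each other, since probes differ in brightness.

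Most proteasome genes differed little between any pair of arrays, and the displacement was a small one shared by many genes. After 24 h compared with 12 h, 29 of the 43 genes were lower in wild type (67.4%) and 31 in knockout (72.1%), with median differences of -0.12 and -0.10 on the log2 scale. Over all 13308 genes kept, 50.8% and 49.5% were lower, with medians of -0.01 and 0.00. At 24 h, 28 of the 43 genes were higher in knockout than in wild type (median 0.12), against 50.9% of all genes (median 0.01). At 12 h, 25 of 43 were higher in knockout (median 0.03), against 50.6% of all genes (median 0.00). Without Psmc3ip and Psme3ip1, of 41 genes 28 were lower over time in wild type and 31 in knockout, and 25 were higher in knockout at 12 h and 26 at 24 h. The 24 h genotype difference and the wild-type time difference share the wild-type 24 h array, so a low value there gives a difference in both.

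**Figure D1:**
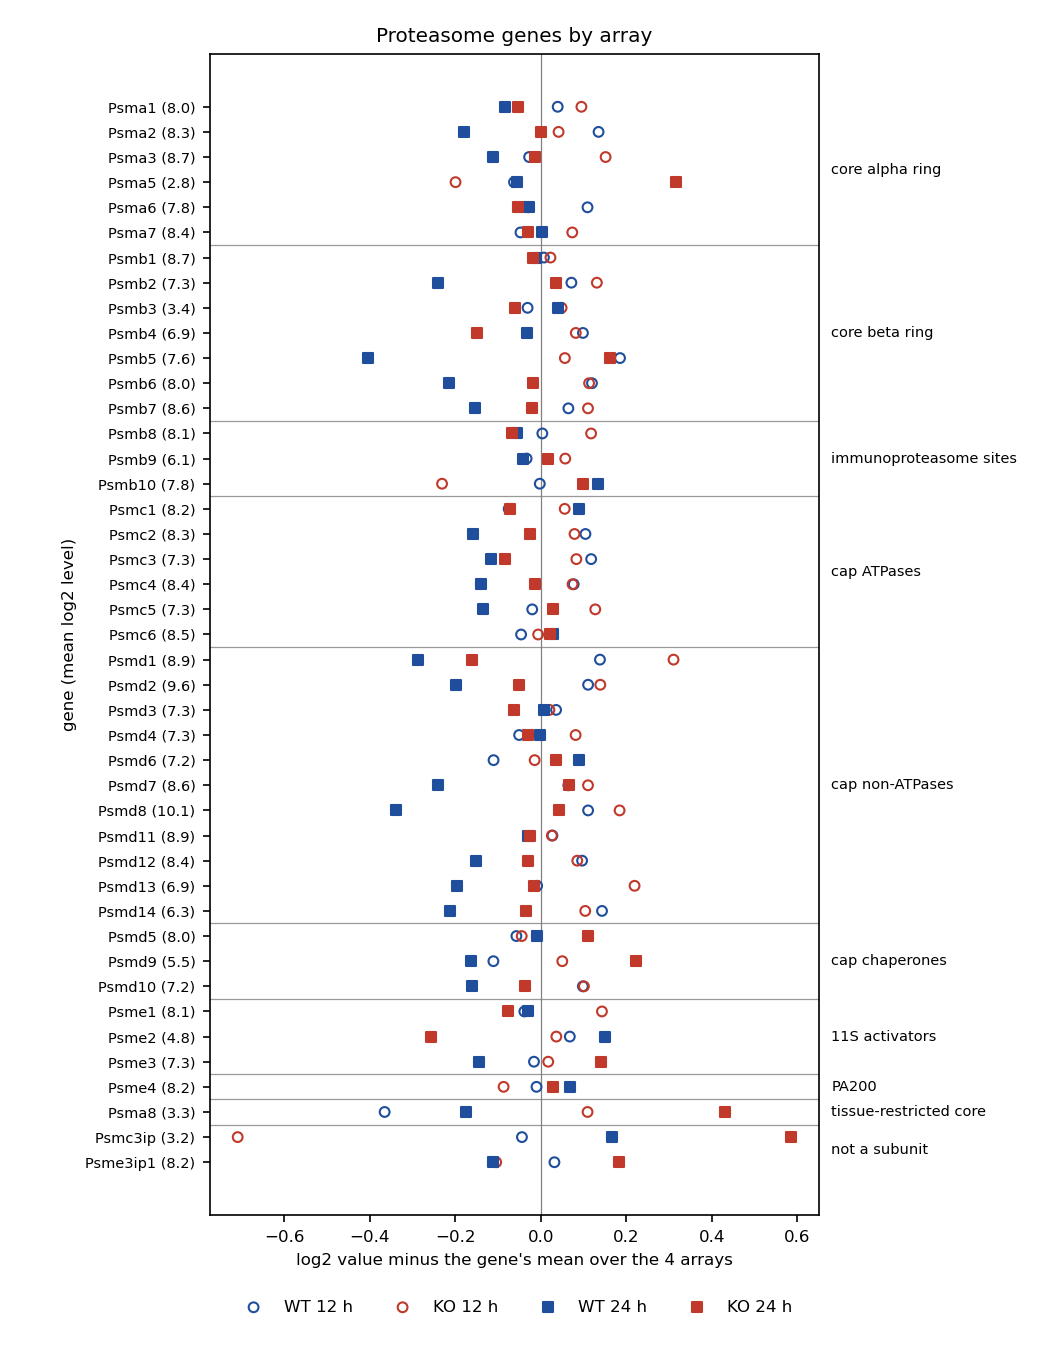
Log2 value of each of the 43 genes past the level filter on the 4 arrays, minus the gene's mean over the arrays, with genes grouped by role and the mean log2 level in brackets. Open circles are 12 h, filled squares 24 h, blue wild type (WT) and red knockout (KO); the wild-type 24 h array was the lowest of the 4 for 24 of the 43 genes.

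Set against genes of similar brightness, the displacement was of the same kind. Among the 33 members at a log2 level of 7 or above, 24 were lower at 24 h in wild type and 25 in knockout, where 51.3% and 50% of the 4150 genes at that level were. In the genotype comparison 20 of the 33 were higher in knockout at 12 h and 21 at 24 h, against 52.6% and 52%. The wild-type 24 h array held the lowest value for 19 of the 32 subunits and factors at that level, and for 33.0% of all genes at that level. The knockout 12 h array held the highest value for 15 of the 32, and for 24.2% of all such genes. The subunits were thus mostly highest at 12 h, and lowest in the wild-type 24 h pool.

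Differences past 1.5-fold were rare. A single gene of the 43 passed this rule in each comparison, against 2.9% of all genes in the 12 h genotype comparison, 6.49% in that at 24 h, 8.72% over time in wild type and 6.31% over time in knockout. These were Psmc3ip, lower in knockout at 12 h, Psma8, higher in knockout at 24 h, Psmb5, lower over time in wild type, and again Psmc3ip, higher over time in knockout. Shares near or below the background are no result about the members, and of the genes named only Psmb5 was bright. By a rule of 1.2-fold, 0 members were higher and 9 lower over time in wild type, where 16.9% and 17% of all genes were. In knockout 5 were higher and 2 lower over time, against 15% and 14.7%. Between the genotypes 1 was higher and 1 lower at 12 h, against 9.77% and 9.96%, and 10 were higher in knockout and 1 lower at 24 h, against 15.4% and 15.5%. Of the 10 higher in knockout at 24 h, 8 remained without Psmc3ip and Psme3ip1, and of the 5 higher over time in knockout, 3. Among genes at a log2 level of 7 or above, 8 of 33 members were lower by 1.2-fold over time in wild type, against 12.5%, and 1 in knockout, against 9.37%, while 6 were higher in knockout at 24 h, against 9.54%.

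The alpha ring, which closes and opens the core, held members that differed between the arrays and members that were nearly level. Psma2 had log2 levels of 8.42 and 8.33 in wild type and knockout at 12 h, and of 8.11 and 8.29 at 24 h. Its wild-type 24 h value was the lowest and the other arrays lay close together, so the time difference was -0.31 in wild type and -0.04 in knockout. Psma3 was at 8.64 and 8.82 at 12 h and at 8.55 and 8.65 at 24 h, lower at 24 h in both genotypes and higher in knockout at both times. Psma1, Psma6 and Psma7 spanned no more than 0.18 over all arrays. Over the 6 alpha genes the median time difference was -0.10 in wild type and -0.07 in knockout. Psma5, on 2 dim probe sets, had genotype differences at 24 h of 0.37 on the brighter and -0.10 on the other.

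The beta ring carried the largest single displacement of a bright subunit. Psmb5, which encodes the chymotrypsin-like active site, had log2 levels of 7.75 (wild type) and 7.62 (knockout) at 12 h, and of 7.16 and 7.73 at 24 h. The wild-type 24 h array stood below the others, which lay within 0.13 of each other. The time difference in wild type was therefore -0.59 (1.5-fold lower) and that in knockout 0.11, and the genotype difference at 24 h was 0.57. Of the 4150 genes at a log2 level of 7 or above, 2.39% had a time difference in wild type as low or lower. Psmb6, the caspase-like site, was at 8.10 and 8.09 at 12 h and at 7.76 and 7.96 at 24 h. Psmb7, the trypsin-like site, was at 8.62 and 8.66 at 12 h and at 8.40 and 8.53 at 24 h. The wild-type 24 h value was the lowest for all 3 constitutive active sites.

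Among the beta subunits without an active site the pattern was mixed. Psmb2 followed that of the active sites, with log2 levels of 7.37 and 7.43 at 12 h and of 7.06 and 7.33 at 24 h. Psmb1 lay between 8.66 and 8.70 on all arrays. Psmb4 had time differences of -0.13 in wild type and -0.23 in knockout, and here the knockout 24 h value of 6.75 was the lowest. Over the 7 beta genes the median time difference was -0.22 in wild type and -0.11 in knockout, with 6 of 7 lower in each.

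In the immunoproteasome the inducible active sites lay within 0.14 of their 12 h values in wild type at 24 h. Psmb8, which replaces Psmb5, had log2 levels of 8.15 and 8.26 in wild type and knockout at 12 h and of 8.09 and 8.08 at 24 h. Psmb9, which replaces Psmb6, lay between 6.04 and 6.14 on all arrays, with its lowest value, by a small margin, also in the wild-type 24 h array. Psmb10, which replaces Psmb7, was at 7.83 and 7.60 at 12 h and at 7.97 and 7.93 at 24 h, higher at 24 h in both genotypes and lowest in the knockout 12 h array. The wild-type time differences of Psmb8, Psmb9 and Psmb10 were -0.06, -0.01 and 0.14. Each exceeded that of its constitutive counterpart, by 0.53, 0.33 and 0.36 on the log2 scale. In knockout the same 3 gaps were -0.29, 0.09 and 0.46, so the order held in 2 of 3 pairs. These gaps rest on single arrays and were not tested. In the RefSeq annotation Psmb9 and Psmb8 lie on either side of Tap1 on chromosome 17, and Psmb5 is the neighbour of Psmb11 on chromosome 14.

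**Figure D2:**
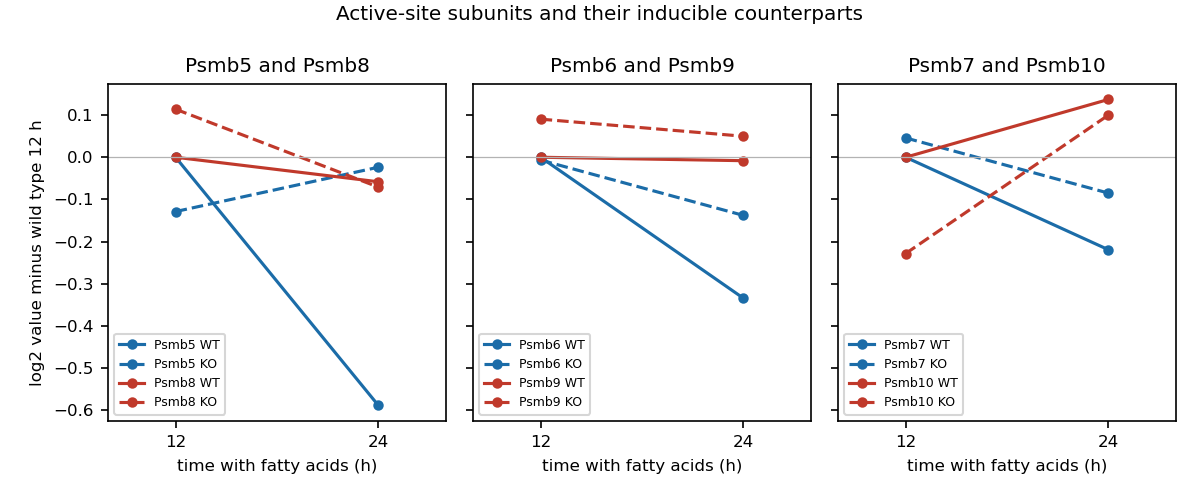
Log2 value minus that of the wild-type 12 h array, against time with fatty acids in hours, for the 3 constitutive active-site genes (blue) and their inducible counterparts (red), with solid lines for wild type (WT) and dashed lines for knockout (KO). Each point is 1 array; in wild type Psmb5, Psmb6 and Psmb7 end at -0.59, -0.33 and -0.22, and Psmb8, Psmb9 and Psmb10 at -0.06, -0.01 and 0.14.

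The ATPases of the cap, which unfold the substrate, were lower at 24 h in 4 of 6 genes in wild type and in 5 of 6 in knockout, with medians of -0.17 and -0.10. Psmc4 is a typical member, with log2 levels of 8.45 and 8.44 at 12 h and of 8.23 and 8.36 at 24 h. Psmc2 was at 8.38 and 8.36 at 12 h and at 8.12 and 8.25 at 24 h on its brighter probe set, and the dimmer one had genotype differences of -0.40 and 0.15. Psmc3 had time differences of -0.23 and -0.17 in wild type and knockout. Psmc1 went against most of the ATPases in wild type, with 8.10 at 12 h and 8.26 at 24 h, and in knockout it was at 8.23 and 8.10. Psmc6 was also higher at 24 h in wild type, by 0.08, but spanned only 8.49 to 8.57.

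The non-ATPase subunits of the cap had the lowest median of the groups with at least 6 genes over time, -0.25 in wild type and -0.12 in knockout, with 9 and 10 of 11 lower. Psmd1, a large scaffold subunit at the base of the cap, had log2 levels of 9.03 (wild type) and 9.20 (knockout) at 12 h, and of 8.60 and 8.73 at 24 h. Both 24 h values lay below both 12 h values, with time differences of -0.43 and -0.47. Of the genes at a log2 level of 7 or above, 5.20% and 2.34% were as low or lower. Psmd2, the other scaffold subunit, was at 9.73 and 9.76 at 12 h and at 9.42 and 9.57 at 24 h, and its 24 h values also lay below those at 12 h.

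Psmd8, a subunit of the lid, had log2 levels of 10.18 and 10.25 at 12 h and of 9.73 and 10.11 at 24 h. As for Psmb5, the wild-type 24 h array stood apart, with a time difference of -0.45 there and of -0.14 in knockout, and a genotype difference at 24 h of 0.38. Psmd7, the partner of the deubiquitinase, was at 8.62 and 8.66 at 12 h and at 8.31 and 8.62 at 24 h, so 3 arrays lay within 0.05 and the wild-type 24 h value below them. Psmd14, the deubiquitinase that removes the ubiquitin chain, was at 6.46 and 6.42 at 12 h and at 6.11 and 6.29 at 24 h. Psmd12 and Psmd13 had time differences in wild type of -0.25 and -0.19 and in knockout of -0.12 and -0.24.

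Other non-ATPase subunits were flat. Psmd11 had log2 levels of 8.91 and 8.91 at 12 h and of 8.85 and 8.86 at 24 h. Psmd3 lay between 7.28 and 7.38 and Psmd4, a receptor for ubiquitin chains, between 7.22 and 7.35. Psmd6 was the only non-ATPase subunit higher at 24 h in both genotypes, by 0.20 and 0.05.

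**Figure D3:**
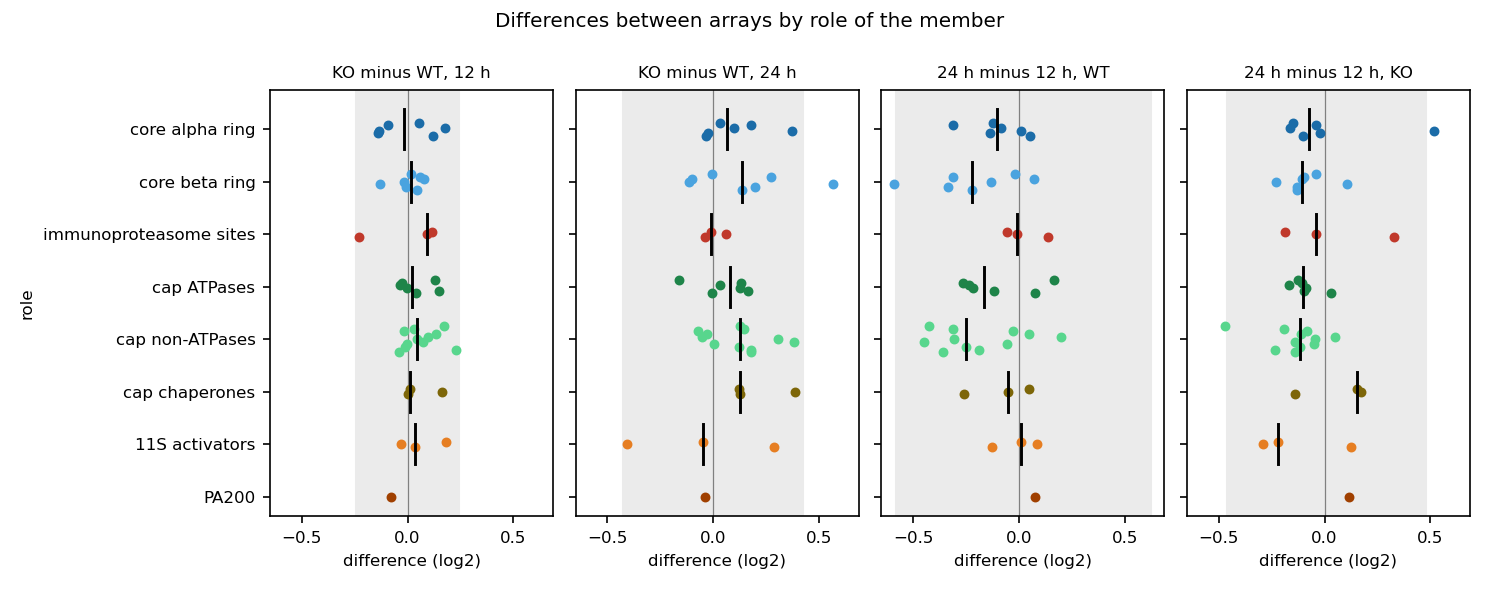
Differences between arrays on the log2 scale for the members of 8 roles, 1 point per gene, in panels for the 2 genotype differences (knockout, KO, minus wild type, WT) and the 2 time differences. Black bars are medians of roles with over 1 gene and the grey band is the central 95% of genes at a log2 level of 7 or above; the medians of the core rings and both cap groups lie below 0 in both time panels.

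The promoters of Psmb5, Psmd1 and Psmd8 are shown because these are the 3 members at a log2 level of 7 or above with the lowest time differences in wild type. Each is the 250 bases before the RefSeq transcription start in mouse build GRCm38.p6, read on the gene's strand. Capitals mark the core of the antioxidant response element (TGACNNNGC, N being any base), the motif family bound by NFE2L1 and NFE2L2, which are known to drive proteasome genes. The Psmb5 sequence is chr14:54617996-54618245 on the minus strand, that of Psmd1 chr1:86064369-86064618 on the plus strand and that of Psmd8 chr7:29180674-29180923 on the minus strand.
Psmb5: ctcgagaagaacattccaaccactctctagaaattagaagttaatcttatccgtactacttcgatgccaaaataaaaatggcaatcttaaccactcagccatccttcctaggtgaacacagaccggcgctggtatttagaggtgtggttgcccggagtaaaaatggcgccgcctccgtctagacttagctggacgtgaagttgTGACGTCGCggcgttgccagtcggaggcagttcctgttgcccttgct
Psmd1: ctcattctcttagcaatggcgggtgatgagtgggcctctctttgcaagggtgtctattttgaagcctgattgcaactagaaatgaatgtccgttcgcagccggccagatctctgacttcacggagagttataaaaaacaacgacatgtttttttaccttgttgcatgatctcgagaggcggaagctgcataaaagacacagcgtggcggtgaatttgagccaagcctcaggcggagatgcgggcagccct
Psmd8: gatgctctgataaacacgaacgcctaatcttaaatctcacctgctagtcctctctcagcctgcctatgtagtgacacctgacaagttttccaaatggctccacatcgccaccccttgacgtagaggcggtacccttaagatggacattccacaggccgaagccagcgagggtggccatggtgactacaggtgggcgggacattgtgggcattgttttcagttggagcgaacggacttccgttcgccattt
The match in Psmb5 lies 47 to 39 bases before the start, and the windows of Psmd1 and Psmd8 hold none. Over the 37 members with a promoter in the table, 5 held the motif on either strand (Psmb5, Psmb6, Psmc6, Psmd9 and Psmd12), which is 13.5% against 11.5% of all 27025 genes. The core of the interferon-stimulated response element (GAAANNGAA) was found in 3 of 37 members, or 8.11% against 8.18%, and not in the windows of Psmb8, Psmb9 or Psmb10. CCAAT was found in 16 of 37, or 43.2% against 37.5%. The letters of these motifs in a window are a description and not a binding site.

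Of the chaperones that assemble the cap, Psmd9 and Psmd10 were higher in knockout at 24 h, as was Psmd5. Psmd9 had log2 levels of 5.37 and 5.53 at 12 h and of 5.32 and 5.71 at 24 h, a genotype difference of 0.16 and 0.39. Psmd10, also known as gankyrin, was at 7.32 and 7.33 at 12 h and at 7.06 and 7.19 at 24 h. Psmd5 lay between 7.92 and 8.08. All 3 chaperones were above 0 in both genotype differences, where 50.6% and 50.9% of all genes kept were, with medians of 0.01 and 0.12. At 12 h, however, Psmd10 and Psmd5 were at 0.002 and 0.01, so hardly apart from 0.

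The activators, which cap the core without ubiquitin, differed among themselves. Psme1, which forms the interferon-inducible 11S ring with Psme2, had log2 levels of 8.09 and 8.27 at 12 h and of 8.10 and 8.05 at 24 h. Psme2 was at 4.91 and 4.88 at 12 h and in knockout at 4.59 at 24 h, the lowest value. Its genotype difference there was -0.41 and its time difference in wild type 0.08. A brighter probe set annotated to 3 symbols, Psme2 among them, was not used. It did not repeat the low knockout value, with 6.66 and 6.92 at 12 h and 7.16 and 7.19 at 24 h. Psme3, the nuclear 11S subunit, was at 7.25 and 7.29 at 12 h and at 7.13 and 7.41 at 24 h, on the other side with a genotype difference of 0.29. Psme4, which encodes PA200, spanned 8.07 to 8.23. Over the 5 interferon-inducible members (Psmb8, Psmb9, Psmb10, Psme1 and Psme2) the median genotype difference was 0.09 at 12 h and -0.04 at 24 h, where 4 of 5 were below 0. Over the 13 constitutive core genes it was 0.02 and 0.10, and over the 17 cap subunits 0.04 and 0.13.

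Psma8 and Psmc3ip, both on dim probe sets, had the widest spans over the arrays among the genes past the filter. Psma8, an alpha subunit of the testis, had log2 levels of 2.91 and 3.39 at 12 h and of 3.10 and 3.71 at 24 h, higher in knockout by 0.47 and 0.61. Psmc3ip, a factor of meiotic recombination, was at 3.15 and 2.49 at 12 h and at 3.36 and 3.78 at 24 h. Psme3ip1, an interactor of Psme3 on a bright probe set, was at 8.23 and 8.09 at 12 h and at 8.08 and 8.38 at 24 h.

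The time differences of the 2 genotypes use no array in common. Of the 43 genes, 25 were lower at 24 h in both and 8 higher in both, where 29.8% of all genes kept were lower in both and 29.3% higher in both. Among the 17 cap subunits, 13 were lower in both and 2 higher in both. The members' 2 time differences correlated at a Pearson's r of 0.421 over 43 genes, and those of all 13308 genes at 0.421. For the genotype differences at 12 h and 24 h, 16 of 43 were above 0 at both times and 6 below 0 at both. Of all genes kept, 27.5% were above 0 at both times and 26.0% below 0 at both. The members' 2 genotype differences correlated at an r of -0.05, against 0.106 over all genes. The probe sets of 1 comparison share their arrays, and genes are not independent replicates. The direction over time was thus shared between the genotypes by most members, as by most genes, while the size of a member's genotype difference at 12 h gave little information on that at 24 h.

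**Figure D4:**
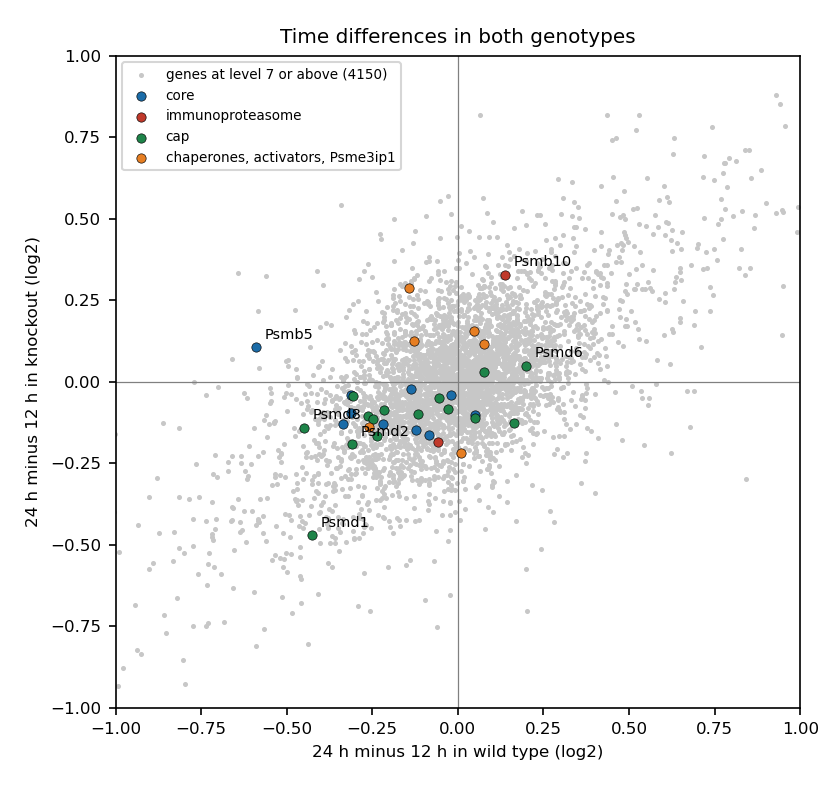
Time difference (24 h minus 12 h, log2) in wild type on the horizontal axis and in knockout on the vertical axis, with the members at a log2 level of 7 or above coloured by role on the 4150 genes at that level in grey. Members gather at the lower left of the origin, Psmd1 is low in both genotypes at -0.43 and -0.47, and Psmb5 is at -0.59 in wild type and 0.11 in knockout; 50 genes lie outside the axes.

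**Figure D5:**
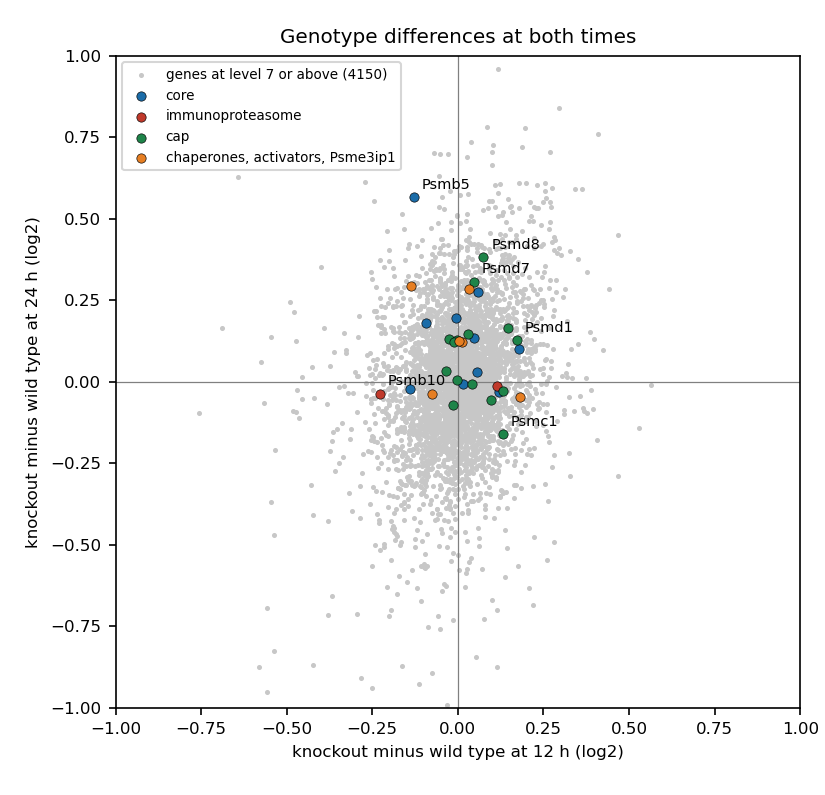
Genotype difference (knockout minus wild type, log2) at 12 h on the horizontal axis and at 24 h on the vertical axis, with the same genes and colours. Of the 33 members 20 lie above 0 at 12 h and 21 at 24 h, against 52.6% and 52% of the 4150 genes. Members and all genes alike spread less at 12 h than at 24 h. Psmb5 is at 0.57 and Psmd8 at 0.38 at 24 h, and 9 genes lie outside the axes.

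The genotype difference at 24 h was apart from that at 12 h by more than 1.5-fold in 2 of the 43 genes, Psmb5 at 0.69 and Psmc3ip at 1.08, against 10.1% of all genes. The median change was 0.09 over the members and -0.00 over all genes. With 4 arrays this change leaves no degree of freedom for a test.

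The only test across genes was a limma fit of genotype and time as added terms, with 1 residual degree of freedom. The times stood in for replicates of the genotype, and the genotypes for replicates of the time. The residual was the change of the genotype difference with time, so the SEs and p-values below do not measure replicate error. A gene with a large change, such as Psmb5, has a large residual for that reason. With Benjamini-Hochberg adjustment over 13308 genes, 0 genes (0%) and 0 members had an adjusted p under 0.05 for genotype or for time. At an unadjusted p under 0.05 there were 868 genes and 1 member for genotype, Psma8 at 0.54 with an SE of 0.12 (limma, adjusted p = 0.76). For time there were 1759 genes and 1 member, Psmd1 at -0.45 with an SE of 0.11 (limma, adjusted p = 0.247). With the prior variance as a trend on level, which allows bright genes a smaller spread, the limma adjusted p of Psmd1 for time was 0.0194, and over the other alternatives it ran from 0.102 to 0.396. That fit called 540 genes for time and Psmd1 was the only member among them.

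Other genes of the proteasome system were taken from lists. The list genes named as examples were chosen after their values were seen. Of 13 symbols of assembly and accessory factors 11 were measured. Lower at 24 h than at 12 h were 8 of 11 in wild type and 6 of 11 in knockout, against 50.8% and 49.5% of all genes kept. At 24 h, 10 of 11 were higher in knockout than in wild type (median 0.12), against 50.9%. Sem1, a small cap subunit, had log2 levels of 9.27 and 9.39 at 12 h and of 8.88 and 9.29 at 24 h. Pomp, which guides assembly of the core, was at 8.36 and 8.37 at 12 h and at 8.08 and 8.43 at 24 h. Usp14, a deubiquitinase of the cap, was at 8.08 and 8.18 and then at 7.86 and 8.14. In all 3 genes the wild-type 24 h array was the lowest, whereas Psmg1, Psmg2, Psmg3 and Ecpas had their lowest value on a 12 h array. Of the factors only Psmg3, a chaperone of the core on a dim probe set, was past 1.5-fold in a genotype or time difference, at 0.61 at 12 h.

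The transcription factors that drive proteasome genes differed from each other over time. Nfe2l1 was slightly lower at 24 h in both genotypes, by -0.05 and -0.02, and had log2 levels of 7.71 and 7.63 at 12 h and of 7.66 and 7.60 at 24 h. Nfe2l2 was higher at 24 h in both genotypes, at 10.02 and 10.00 at 12 h and at 10.33 and 10.34 at 24 h. Ngly1, the enzyme that deglycosylates NFE2L1, was at 6.95 and 6.75 at 12 h and at 7.37 and 7.35 at 24 h, a time difference of 0.42 and 0.60. The 6 measured regulators had median time differences of 0.10 and 0.30.

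Of the ubiquitin and shuttle genes 10 of 17 were measured, with median time differences of -0.01 in wild type and -0.08 in knockout. In knockout all 10 were below 0, against 49.5% of all genes kept. The segregase gene Vcp was at -0.27 and -0.16 and Sqstm1, an adaptor of selective autophagy, at -0.28 and -0.00. Of the class I presentation genes 12 of 14 were measured, with medians of -0.11 and -0.07 over time and of 0.01 and 0.10 between the genotypes at 12 h and 24 h. The peptide transporter gene Tap1 had genotype differences of -0.08 and 0.06, and Irf1, a factor that induces the immunoproteasome, of -0.26 and -0.48. The 13 interferon targets past the filter had a median genotype difference of -0.37 at 24 h, with 10 of 13 below 0, against 49.0% of all genes kept. Their mean log2 levels ran only from 2.86 (Gbp3) to 6.61 (Oas2), whereas Psmb8, Psmb10 and Psme1 were above 7. The targets and these members are thus not of like brightness. Of the interferon-inducible members, Psmb8, Psmb9 and Psmb10 lay between -0.04 and 0.06, Psme1 at -0.05 and Psme2, on its single-symbol probe set, at -0.41.

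Other large assemblies were set beside the proteasome. The median time differences in wild type and knockout were -0.06 and 0.06 for the 8 genes of the CCT chaperonin, -0.11 and 0.04 for the 9 genes of the COP9 signalosome, a relative of the lid, and -0.01 and 0.10 for the 12 measured genes of eIF3. The 17 cap subunits were at -0.22 and -0.11, and the 13 core genes at -0.13 and -0.10. At 24 h the genotype medians were 0.08, 0.14 and 0.06 for these 3 assemblies and 0.13 and 0.10 for cap and core. Medians above 0 in knockout at 24 h were therefore found in these assemblies as well. Medians below 0 over time in both genotypes were found in cap and core and in none of these 3. They were not particular to cap and core, since other lists had them too. In wild type and knockout they were -0.11 and -0.07 for class I presentation and -0.01 and -0.08 for ubiquitin and shuttle genes. For the assembly and accessory factors they were -0.11 and -0.003. Whether the lists differ was not tested.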

How the data were processed

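Expression was measured on 4 arrays, 1 per group, assigned from the sample titles. The authors deposited a log2 value for each probe set, and the submitters' processing notes name RMA. Because RMA makes the distributions of the arrays nearly alike, a change of total RNA cannot be seen. The log2 scale was read from the values (medians 2.70 to 2.73, highest 13.2). Of 41345 probe sets, 23521 had 1 symbol. A gene with several probe sets took that with the highest mean. All 44 members matched RefSeq (GRCm38.p6).

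Genes past the 40th percentile of mean level were kept (13308). Differences of log2 values were computed in Python 3.11.15 with pandas 2.3.3, and genotype and time were fitted with limma 3.58.1 in R 4.3.3, adjusted by Benjamini-Hochberg. Arrays of 13308 genes were simulated with noise set by level, no time effect and the same genotype effect at both times. Genes of similar level shared the same spread of noise, and genes whose genotype difference changes with time were not simulated. For both reasons the recovery in the real data may be lower. On these simulated arrays limma recovered 73 of 100 genes changed 2-fold and 100 of 100 changed 4-fold, with 0 unchanged genes called. The 1.5-fold rule on 1 pair of simulated arrays passed 96 and 100 of them, but also 295 unchanged genes, so it is a description of size and not a test.

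Members and lists were chosen with earlier results of these data known. All members, and all genes of lists of up to 12 genes, could be named. From longer lists the plan allowed those past 1.5-fold and those nearest the list's median. Several genes named from the longer lists, such as Sem1, Pomp and Vcp, lie outside that plan. Alternatives covered filters, normalization, fold rules and probe sets. Restriction to a log2 level of 7 or above, and leaving out Psmc3ip and Psme3ip1, were added after seeing the data. The number of arrays limits precision. The value table held 0 columns without a sample.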

Additional observations from a re-analysis of the deposited data

Results flagged for a closer look

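The genotype difference of 2 members went in opposite directions at 12 h and 24 h by at least 1.2-fold each time. Psmc3ip, the recombination factor matched by symbol, was lower in knockout by -0.66 at 12 h and higher by 0.42 at 24 h, a change of 1.08 on the log2 scale. Psmb11, the thymus-specific core subunit, was at 0.49 and -0.45, a change of -0.94. Both probe sets were dim, with mean log2 levels of 3.20 and 2.13, and that of Psmb11 did not pass the level filter. The change was not tested, since each value comes from single arrays. How many of all genes met this 1.2-fold rule is not given here. Opposite signs of any size were common, among the members as among all genes. Of the 43 members past the filter, 9 were higher in knockout at 12 h and lower at 24 h, and 12 the other way. Over all 13308 genes kept, these counts were 3068 and 3115. Over time, 6 of the members were higher in wild type and lower in knockout, and 4 the other way, against 2629 and 2799 of all genes kept. Smaller differences of this kind are not listed by gene, because single arrays give them no error.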

How the results depend on the processing

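Of 115 alternative values of counts, medians and limma calls, 81 stayed within 1.5 times the main value, 34 moved further and 0 reversed. Only the medians could reverse, since counts and limma calls have no sign. Many limma calls counted as unchanged were 0 in both settings. The members' medians kept their sign in all 9 settings each: 0.01 to 0.04 for the 12 h genotype difference, 0.11 to 0.15 for that at 24 h, -0.15 to -0.09 over time in wild type and -0.11 to -0.08 in knockout. The 12 h genotype median moved to 0.0137 after quantile normalization and to 0.0164 after loess, from 0.0285. The counts past the fold rule are given for the genotype difference at 12 h and 24 h, the time difference in wild type and knockout, and the change of the genotype difference. By 1.2-fold they were 2, 11, 9, 7 and 8, by 1.3-fold 2, 6, 3, 3 and 4, and by 2-fold 0, 0, 0, 1 and 1. At 1.5-fold, the filter at the 60th percentile gave 0 at 12 h, 0 at 24 h, 0 over time in knockout and 1 for the change, and so did a log2 level of 7 or above. No filter gave 2 over time in knockout. Without Psmc3ip and Psme3ip1 the counts were 0 at 12 h, 0 over time in knockout and 1 for the change. Median centring gave 2 at 24 h, and quantile normalization and loess gave 0 over time in wild type, where Psmb5 lies at the threshold. For time, limma called 146 genes with the filter at the 60th percentile and 540, with 1 member, with the trend on level. No paired analysis was possible because each group has 1 array. Dim probe sets near background limit Psma5, Psma8, Psmb3, Psmb11 and Psmc3ip.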
